A study of Homo sapiens with 20 samples.

Results

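The genes of mitochondrial DNA were followed by RNA sequencing of 20 libraries from Jurkat, a T lymphoblast line established from a human leukemia. Members were all genes whose symbol begins with MT-, which gave 37 of the 60719 genes counted. They comprise 13 protein genes, 2 rRNA genes and 22 tRNA genes, the full gene set of the molecule. The symbols were checked against the annotation, and all 37 identifiers lie on chrM. Of the 37, 15 passed the filter on low counts (the 13 protein genes and 2 rRNA genes), as did 16327 of all genes, and the 22 tRNAs did not.

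WT Jurkat cells were compared with CD47- cells (JinB8), a somatic mutant of the same line that is 1 clone. Both lines were sampled in the same 10 conditions. Untreated cells were taken at 1 h only. Activated cells, on plates coated with antibodies to CD3 and CD28 (CD3+CD28), were taken at 1, 3 and 6 h, as were cells that received thrombospondin-1 (TSP1) together with the antibodies (CD3+CD28+TSP1) or alone. This secreted ligand of CD47 was added at 1 µg/mL, anti-CD28 was coated at 4 µg/mL, and all cells were plated in HITES, a serum-free medium. Each condition was sequenced once, so a group is a line at a time point with its treatments as replicates (4 libraries at the first time and 3 at each later one), and its SD includes treatment effects. The p-values measure the spread between these libraries, which may be technical. No untreated library was sequenced at 3 or 6 h, so time in the medium and time with an agent cannot be told apart.

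Library totals ran from 16107921 to 31737616 counts, with a median of 23802637. CD47 mRNA, in counts per 1e6 (CPM), averaged 317 ± 42.1 in WT against 147 ± 12.6 in the mutant (SD, n = 10), and the lines did not overlap. All 11 T cell genes of the marker list exceeded 1 CPM in both lines, with summed levels of 1650 to 2980 CPM. Of the 4 B cell genes 2 exceeded 1 CPM, and the sum of the list was 35.6 to 55.9 CPM in WT and 5.71 to 13.5 CPM in the mutant. The summed myeloid, NK, epithelial and fibroblast lists stayed at or below 1.76, 1.11, 0.396 and 7.53 CPM. RNAs that carry no poly(A) tail, among them RN7SK and RN7SL1, took 10.4 to 18.7% of the counts, although the kit is described as one for mRNA. Their part in the results below was not tested.

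One library stood apart in the mitochondrial genes. The CD47- library given CD3+CD28+TSP1 at 3 h had the lowest total, and its median correlation with the other libraries of its line was 0.961, against 0.965 to 0.978 for the other CD47- libraries. Its MT-CYB level of 285 CPM compared with a mean of 87.3 CPM in the other 2 CD47- libraries at 3 h, and its MT-ND5 level of 166 CPM with 46.7 CPM. MT-ND6 went the other way, at 5.70 against 14.9 CPM, as did MT-ND3, at 50.1 against 117 CPM. On the log2 scale these differences were 1.71, 1.83, -1.39 and -1.22, while 90 of every 100 tested genes in that library lay between -0.57 and 0.95. Values are from all 20 libraries unless stated otherwise, and the counts of members called are also given without it.

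Human mitochondrial DNA is a closed circle that is transcribed from both strands into long precursors, and most of the mRNAs and rRNAs are released by cutting out the tRNAs that lie between them. The strands are named heavy and light for their base content. Transcripts of the heavy strand hold the rRNAs, all but one of the mRNAs and most tRNAs. Transcripts of the light strand hold MT-ND6 and the remaining tRNAs, and are otherwise mostly noncoding and quickly degraded. The mRNAs encode core subunits of the respiratory chain and of ATP synthase, whose other subunits are encoded in the nucleus. The mRNA of MT-ND6 is known to carry little or no poly(A) tail.

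In the GRCh38 reference the circle has 16569 bases, and 28 of the genes read along the plus strand (12 mRNAs, 2 rRNAs, 14 tRNAs, called heavy-strand products here) and 9 along the minus strand (MT-ND6 and 8 tRNAs, light-strand products). The base content separates them: G makes up 13.1% of the plus strand and 31.3% of the minus strand. The mRNA of MT-ND6 holds 35.6% G, and the 12 heavy-strand mRNAs hold 6.30 to 16.2%. The following stretches of the reference show how closely the members used for the strand comparison lie together. The 3' end of MT-ND5 (chrM:12337-14148, plus strand) meets the 3' end of MT-ND6 (chrM:14149-14673, minus strand) with 0 bases between them. In the first line capitals mark the bases that belong to MT-ND6, which is read in the opposite direction, and in the next 2 lines they mark the first codon of each mRNA.
ND5-ND6 boundary, chrM:14119-14178, plus strand: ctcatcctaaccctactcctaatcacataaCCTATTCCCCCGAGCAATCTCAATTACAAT
ND6 start, chrM:14614-14673, minus strand: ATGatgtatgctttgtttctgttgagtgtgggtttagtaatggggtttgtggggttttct
ND5 start, chrM:12337-12396, plus strand: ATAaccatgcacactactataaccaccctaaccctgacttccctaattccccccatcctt

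Of the 37 genes 5 pairs share positions, 3 of mRNA genes and 2 of tRNA genes, which matters for how reads are split between them. MT-ATP8 and MT-ATP6 share 46 bases, and MT-ND4L and MT-ND4 share 7, both in the capitals below. MT-ATP6 and MT-CO3 share 1. The counts of the first 4 genes are estimates that depend on how overlapping reads were assigned, so the values of genes that overlap are not independent. Whether the counting used the strand of the reads is not given in the sources used here, so reads of MT-ND6 and antisense reads from the heavy-strand precursor cannot be told apart.
ATP8-ATP6 overlap, chrM:8517-8582, plus strand: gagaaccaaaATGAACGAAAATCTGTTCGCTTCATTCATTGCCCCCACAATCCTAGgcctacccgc
ND4L-ND4 overlap, chrM:10740-10786, plus strand: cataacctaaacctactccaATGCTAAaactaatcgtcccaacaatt

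The 37 genes together took 0.339 to 0.663% of the counts of a library, or 78743 to 155784 counts. The subunits of cytochrome c oxidase dominated: MT-CO1, MT-CO2 and MT-CO3 held a median of 85.0% of the heavy-strand mRNA counts (range 75.5 to 86.3%, the lowest being the library that stood apart). Levels per gene length, in CPM per kb, spanned a wide range although all heavy-strand products start as shared precursors. The median over 20 libraries was 1280 CPM per kb for MT-CO1, 1190 for MT-CO3 and 961 for MT-CO2, whose ranges overlapped. MT-RNR2, the large rRNA, followed at 355 and MT-ND3 at 342, also with overlapping ranges.

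The other subunits of complex I, the NADH dehydrogenase that takes in electrons from NADH, were lower. MT-ND4 and MT-ND4L had medians of 106 and 93.1 CPM per kb, MT-ND1 38.9, MT-ND2 35.5 and MT-ND5 28.4. MT-CYB, the only mitochondrially encoded subunit of complex III, had 84.4. MT-ATP6, part of the proton channel of ATP synthase, had 112 and MT-ATP8 31.8. MT-ND6, the light-strand mRNA, had 32.0, within the range of MT-ND1, MT-ND2, MT-ATP8 and MT-ND5. MT-RNR1, the small rRNA, was the most variable of the 15, from 53.3 to 805 CPM per kb, a 15.1-fold range, against 1.56-fold for MT-CO3.

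**Figure D1:**
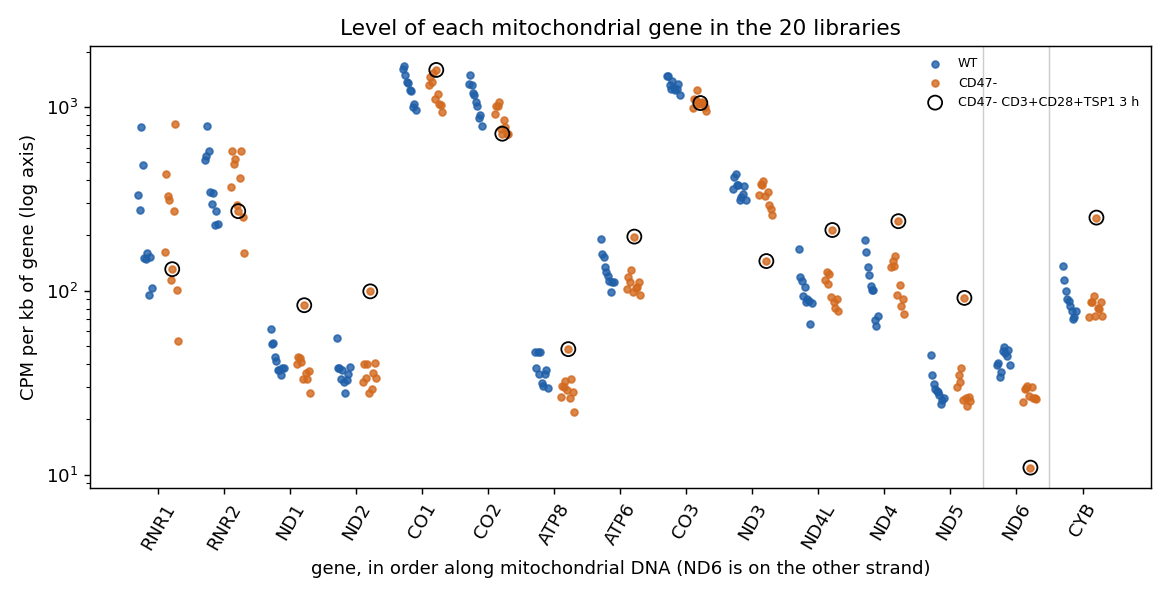
Level of the 13 mRNAs and 2 rRNAs in CPM per kb of gene on a log axis, in order along the molecule, with 1 point for each of the 10 libraries of each line and a ring around the CD47- library given CD3+CD28+TSP1 at 3 h. MT-CO1, MT-CO2 and MT-CO3 lie highest, MT-RNR1 spreads most, and the ringed library lies above the others for MT-CYB, MT-ND5 and MT-ND2 and below them for MT-ND6 and MT-ND3.

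The tRNAs were hardly sequenced. All 22 together gave 128 counts in 20 libraries, and no tRNA exceeded 8 counts in a library. The 14 heavy-strand tRNAs gave 85 counts and the 8 light-strand tRNAs 43. Of the 22, 8 had no count in any library, which allows a level of up to 0.0063 CPM over the pooled libraries by counting error alone. At 1, 3 and 6 h the heavy-strand tRNAs gave 19, 15 and 11 counts in WT and 15, 8 and 17 in CD47- cells. The light-strand tRNAs gave 8, 5 and 4 counts in WT and 16, 9 and 1 in CD47- cells, from 4, 3 and 3 libraries. These sums over few counts were not tested.

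Nuclear copies of mitochondrial genes, pseudogenes that arose by insertion of mitochondrial sequence into chromosomes, can take or give reads. The 402 listed under such names held 0.328 to 0.623% as many counts as the mitochondrial genes. The 3 with the most counts lie next to each other on chromosome 1. MTCO1P12 (chr1:631074-632616) had 5407 counts over 20 libraries against 925492 for MT-CO1, MTATP6P1 (chr1:633696-634376) 3702 against 39601 for MT-ATP6, and MTND2P28 (chr1:629640-630683) 182 against 18881 for MT-ND2. Their identity with the mitochondrial genes is 98.7, 98.5 and 98.4%. Of the windows of read length in the mitochondrial gene, 19.9, 3.10 and 20.7% occur unchanged in the nuclear copy.

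The first comparison asked which mitochondrial transcripts differ between CD47- and WT cells over all conditions. MT-ND6, MT-CO2 and MT-CO3 were lower in CD47- cells, and no member was higher. MT-ND6 averaged 22.2 ± 2.73 CPM in WT but 13.6 ± 2.97 CPM in CD47- cells (SD, n = 10). Its libraries ranged from 17.8 to 25.8 CPM (median 22.2) in WT and from 5.70 to 15.9 CPM (median 13.9) in CD47- cells. The lines did not overlap, and MT-ND6 was lower in CD47- cells in 10 of 10 pairs of libraries with the same treatment and time. The summed level of the listed RNAs without a poly(A) tail was lower as well in CD47- cells. Its median was 122000 CPM (87000 to 182000) against 177000 CPM in WT (131000 to 207000), and the library with the lowest MT-ND6 level had the lowest sum. Not every RNA of the list was lower. RNU4-2 averaged 173 CPM in CD47- cells against 150 CPM in WT, and RNU5A-1 40.5 against 39.7 CPM, while the other means were lower in CD47- cells. At 6 h these RNAs took a mean of 16.8% of the counts against 17.3% in WT, and at 1 h 12.3 against 16.2%. Their part in the MT-ND6 difference was not tested. MT-ND6 was the only member of the 15 without overlap, but the share of all genes tested without overlap was not counted. In this comparison 40.4% of all genes tested were called. The log2 fold change was -0.70 (SE 0.131, adjusted p = 0.000152 in edgeR's quasi-likelihood test), and -0.60 (SE 0.0801, adjusted p = 3.52e-06) without the library that stood apart.

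MT-CO2 and MT-CO3, which encode core subunits of cytochrome c oxidase, differed less. MT-CO2 averaged 762 ± 155 CPM in WT against 583 ± 94.4 CPM in CD47- cells (log2 fold change -0.39, SE 0.115, adjusted p = 0.00988). Its libraries ranged from 541 to 1020 CPM (median 763) and from 486 to 727 CPM (median 558). MT-CO3 averaged 1030 ± 83.9 and 829 ± 60.9 CPM (log2 fold change -0.31, SE 0.0615, adjusted p = 0.000263), with ranges of 906 to 1160 CPM (median 1010) and 744 to 967 CPM (median 823). Both overlapped between the lines and both were lower in CD47- cells in 10 of 10 pairs. MT-CO1 averaged 1990 ± 379 and 1930 ± 351 CPM (log2 fold change -0.04, adjusted p = 0.798) and was not called, but the difference among the 3 subunits was not itself tested. In limma voom with quantile normalization neither MT-CO2 (-0.25, adjusted p = 0.0569) nor MT-CO3 (-0.14, adjusted p = 0.153) was called, whereas MT-ND6 kept its call between the lines under every setting run. With the library that stood apart left out MT-CO2 was at -0.34 (adjusted p = 0.0228) and MT-CO3 at -0.29 (adjusted p = 0.000404).

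In all, 3 of 15 members were called lower, against 20.6% of all genes tested, and none was called higher, against 19.8%. With that 3 h library left out 5 of 15 were called lower, against 20.5% of all genes. The added genes were MT-ATP6 (log2 fold change -0.26, adjusted p = 0.0484, against -0.17 and 0.326 with all libraries) and MT-ATP8 (-0.38, adjusted p = 0.00685, against -0.31 and 0.0613). The call of MT-ATP8 was also gained when the WT TSP1 library of 3 h (adjusted p = 0.0459) or of 6 h (adjusted p = 0.0414) was omitted. With a term for each of the 10 pairs of libraries 5 were called lower, MT-ATP8 and MT-ND3 being the additions, against 27.6% of all genes in that fit. The 10 members other than MT-ND6, MT-CO2, MT-CO3, MT-ATP6 and MT-ATP8 had log2 fold changes between -0.20 and 0.24, and with or without the library that stood apart none of them was called.

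Split by time, the difference in MT-ND6 had a log2 fold change of -0.39 at 1 h (adjusted p = 0.0739), -1.06 at 3 h (adjusted p = 0.000335) and -0.76 at 6 h (adjusted p = 0.00475). Without the library that stood apart it was -0.37 (adjusted p = 0.000541), -0.71 (adjusted p = 1.54e-05) and -0.74 (adjusted p = 1.32e-06), so that MT-ND6 was then called lower at each time. It was also called at 1 h without the CD47- library given TSP1 alone at 3 h (adjusted p = 0.0475). MT-CO3 was called lower at each time with all libraries, at -0.33, -0.29 and -0.32. Its call at 3 h was lost without the WT CD3+CD28 library of that time (adjusted p = 0.0542), and limma voom called it at no time and gave 0.07 at 3 h. MT-CO2 was called at 1 h (-0.42) and 3 h (-0.48), and at 6 h had -0.22 with an adjusted p of 0.0539, which passed without the library that stood apart (0.0417), the CD47- TSP1 library at 3 h (0.0432) or the WT TSP1 library at 6 h (0.0366). At 1 h MT-ATP6 (-0.47, adjusted p = 0.0194) and MT-ATP8 (-0.49, adjusted p = 0.0336) were called too. The call of MT-ATP6 was lost without the untreated library of WT (adjusted p = 0.0756) or of CD47- cells (0.0608). The call of MT-ATP8 was lost without any of 5 libraries, the untreated one (adjusted p = 0.0867 for WT, 0.0882 for CD47-), the CD3+CD28+TSP1 one (0.084 and 0.061) or the CD47- CD3+CD28 one (0.0572).

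The counts of members called lower in CD47- cells were 4, 3 and 2 of 15 at 1, 3 and 6 h, against 23.7, 22.8 and 24.1% of all genes. With the library that stood apart left out they were 7, 3 and 4, against 25.5, 20.6 and 26.5%. The additions beside those above were MT-CYB (-0.35, adjusted p = 0.0053) and MT-ND1 (-0.30, adjusted p = 0.00765) at 1 h and MT-ND3 (-0.29, adjusted p = 0.00928) at 6 h. At 3 h 9 members changed sign with that library left out, none of them called either way, with MT-CYB going from 0.70 to -0.08, MT-ND5 from 0.76 to -0.09 and MT-ND2 from 0.68 to -0.15. MT-ND4 was then called higher at 6 h (0.28, adjusted p = 0.0486), when 26.0% of all genes were. At 1 h the count was 2 without the untreated library of either line, against 21.9 and 21.8%. At 3 h, when the CD47- library given CD3+CD28 or TSP1 alone was omitted, the library that stood apart was 1 of 2. Then 3 and 4 members were called lower, and 6 were called higher in each fit (MT-ND1, MT-ND2, MT-ND4, MT-ND4L, MT-ND5 and MT-CYB), against 21.3 and 22.8% of all genes lower and 22.2 and 23.3% higher. At 6 h, when the CD47- library given TSP1 alone was omitted, 2 were lower and both rRNAs were higher (MT-RNR1 at 1.98, adjusted p = 0.00978, and MT-RNR2 at 0.79, adjusted p = 0.0192), when 20% and 21.3% of all genes were. With all libraries MT-RNR1 was at 1.45 (adjusted p = 0.0777) and MT-RNR2 at 0.43 (adjusted p = 0.254), and without the CD47- library given CD3+CD28 at 6 h they were at -0.60 (adjusted p = 0.297) and -0.24 (adjusted p = 0.406). Without the CD47- library given CD3+CD28+TSP1 at 6 h MT-RNR1 was also called higher (1.87, adjusted p = 0.0286), as were 19.7% of all genes.

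The strand question was then asked within each library, where a ratio of counts does not depend on how libraries are scaled. The log2 ratio of MT-ND6 to MT-ND5, its neighbor on the other strand, averaged -1.28 in WT and -2.14 in CD47- cells. The difference was -0.87 ± 1.08 (SD over 10 pairs), and it was negative in 10 of 10 pairs. The exact two-sided sign-flip permutation test gave p = 0.00195, the smallest that 10 pairs allow, and an adjusted p of 0.0352 over the 18 comparisons of both ratios. Without the library that stood apart the difference was -0.54 ± 0.253 over 9 pairs, negative in 9 of 9 (exact permutation p = 0.00391, the smallest that 9 pairs allow, adjusted p = 0.0703).

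The ratio of MT-ND6 to MT-CYB, which lies on its other side, averaged -2.20 and -2.97. The difference was -0.77 ± 1.14, negative in 9 of 10 pairs (exact permutation p = 0.00977, adjusted p = 0.0879), and -0.44 ± 0.452 without that library (exact permutation p = 0.0195, adjusted p = 0.129). Neither value passed the threshold after adjustment. In the 3 h library that stood apart the log2 ratios were -4.85 to MT-ND5 and -5.63 to MT-CYB, below all other libraries.

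By time, the ratio of the light-strand mRNA to its neighbors was higher at 3 and 6 h than at 1 h in every WT library. The log2 ratio of MT-ND6 to MT-ND5 in WT cells was -1.96 to -1.48 at 1 h, -1.07 to -0.98 at 3 h and -1.20 to -0.88 at 6 h. No library at 1 h reached those at 3 or 6 h. The difference from 1 h was 0.64 at 3 h and 0.67 at 6 h, each with an exact two-sided permutation p of 0.0571, the smallest that 4 against 3 libraries allow (adjusted p = 0.114). To MT-CYB the differences were 0.74 and 0.80, also without overlap and with the same p and adjusted p.

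In CD47- cells the ratio of MT-ND6 to MT-ND5 was -2.11 to -1.89 at 1 h and -1.80 to -1.65 at 6 h, a difference of 0.28 without overlap (exact permutation p = 0.0571, adjusted p = 0.114). At 3 h the 3 libraries had values of -1.70, -4.85 and -1.59. The ratio to MT-CYB was -2.75 to -2.65 at 1 h and -2.85 to -2.62 at 6 h, overlapping, with a difference of -0.04 (exact permutation p = 0.571). The gap between the lines in the ratio to MT-CYB was thus -0.03 at 1 h and -0.87 at 6 h, a change of -0.84 (exact permutation p = 0.0571, the smallest possible, adjusted p = 0.114). For the ratio to MT-ND5 it was -0.35 and -0.74, a change of -0.39 (exact permutation p = 0.114, adjusted p = 0.206). None of the comparisons between times can reach 0.05 in this design.

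**Figure D2:**
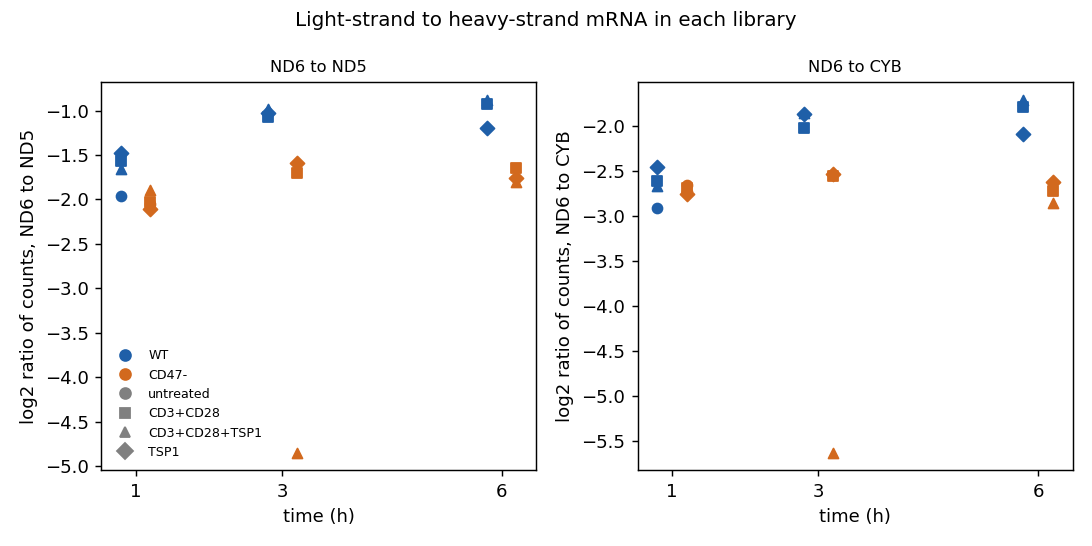
Log2 ratio of MT-ND6 counts to MT-ND5 counts (left) and to MT-CYB counts (right) in each of the 20 libraries by time in hours, with the line as color and the treatment as symbol. WT values at 3 and 6 h lie above those at 1 h, CD47- values lie below WT at 3 and 6 h, and 1 CD47- library at 3 h lies far below at -4.85 and -5.63.

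The next comparison asked how the members changed with time in each line. In WT cells the share of counts in the 37 genes was 0.613 ± 0.0300% at 1 h (SD, n = 4), 0.493 ± 0.0302% at 3 h (n = 3) and 0.398 ± 0.0223% at 6 h (n = 3), with no overlap between times. In CD47- cells it was 0.556 ± 0.0476, 0.537 ± 0.113 and 0.418 ± 0.0863%, and 0.474 ± 0.0389% at 3 h without the library that stood apart. The CD47- libraries at 6 h, at 0.510, 0.404 and 0.339%, overlapped those at 1 h. Without the 2 rRNAs the CD47- shares were 0.423 to 0.490% at 1 h and 0.310 to 0.354% at 6 h, which did not overlap, while WT libraries at 1 h (0.450 to 0.534%) and 3 h (0.403 to 0.452%) did. These shares are sums over members and were not tested.

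The largest decrease among the heavy-strand mRNAs was that of MT-ND4, a membrane subunit of complex I. In WT cells it had 260, 223, 187 and 168 CPM at 1 h in the untreated, CD3+CD28, CD3+CD28+TSP1 and TSP1 libraries. It had 146, 140 and 139 CPM at 3 h and 96.1, 88.1 and 100 CPM at 6 h in the 3 treated conditions in the same order. The 3 times did not overlap. The log2 fold change at 6 h against 1 h was -1.14 (SE 0.217, adjusted p = 0.000174). In CD47- cells MT-ND4 had 185, 200, 189 and 212 CPM at 1 h and 114, 124 and 103 CPM at 6 h, again without overlap (log2 fold change -0.79, SE 0.215, adjusted p = 0.00402).

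MT-CO1 and MT-CO2 fell in both lines. MT-CO1, the subunit that holds the oxygen-binding site, went from 2360 ± 211 to 1550 ± 55.9 CPM in WT (log2 fold change -0.61, adjusted p = 7.15e-05) and from 2180 ± 149 to 1550 ± 89.9 CPM in CD47- cells (-0.49, adjusted p = 0.000565). MT-CO2, which takes electrons from cytochrome c, went from 913 ± 84.2 to 584 ± 38.6 CPM in WT (-0.64, adjusted p = 2.85e-06) and from 684 ± 43.6 to 502 ± 26.7 CPM in CD47- cells (-0.45, adjusted p = 0.000178). MT-CO3 was not called in either line, at -0.15 (adjusted p = 0.122) and -0.15 (adjusted p = 0.142), though it was at -0.22 (adjusted p = 0.0385) in WT without the library given TSP1 alone at 1 h.

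MT-ATP6, MT-ND4L and both rRNAs were also called lower at 6 h in WT cells. MT-ATP6 had a log2 fold change of -0.58 (adjusted p = 0.00823). MT-ND4L, at -0.63 (adjusted p = 0.0311), lost its call without the untreated library (adjusted p = 0.124), the library given CD3+CD28+TSP1 at 6 h (adjusted p = 0.135) or the one given TSP1 alone at 6 h (adjusted p = 0.0513). MT-RNR2 went from 942 ± 194 to 379 ± 39.1 CPM (log2 fold change -1.31, adjusted p = 0.00074) and MT-RNR1 from 444 ± 213 to 112 ± 30.3 CPM (-1.99, adjusted p = 0.013). The call of MT-RNR1 was lost without the CD3+CD28 library at 6 h (adjusted p = 0.0511).

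The rRNAs in CD47- cells depended on a single library. MT-RNR1 had 156, 413, 314 and 295 CPM at 1 h in the untreated, CD3+CD28, CD3+CD28+TSP1 and TSP1 libraries, and 768, 96.1 and 50.8 CPM at 6 h in the treated conditions in the same order. The CD3+CD28 library at 6 h held the highest level of all 20. With all libraries the log2 fold changes at 6 h against 1 h were 0.05 for MT-RNR1 (adjusted p = 0.951) and -0.58 for MT-RNR2 (adjusted p = 0.0943). Without that library they were -2.0 (adjusted p = 0.00115) and -1.25 (adjusted p = 0.000103). Over the CD47- libraries RNAs without a poly(A) tail took a mean of 12.3% of the counts at 1 h, 12.1% at 3 h and 16.8% at 6 h, against 16.2, 15.9 and 17.3% in WT, and their part in the time comparisons was not tested.

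In all, 7 of 15 members were called lower at 6 h in WT cells and 3 of 15 in CD47- cells, against 26.6 and 27.5% of all genes, and none higher, against 26.8 and 26.4%. In CD47- cells the 3 were MT-CO1, MT-CO2 and MT-ND4, and the count was 5 without the library given TSP1 alone at 3 h or CD3+CD28 at 6 h, against 27.8 and 24.6%. Of the 12 heavy-strand mRNAs, 12 had a negative log2 fold change in WT and 11 in CD47- cells. The median over the 15 members was -0.58 in WT and -0.36 in CD47- cells, against -0.01 for all genes in both.

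Leaving out the library that stood apart also changes the estimate of spread that all groups share. Then 11 members were called lower and 1 higher in WT cells at 6 h, against 29.3 and 29.4% of all genes, and 7 lower in CD47- cells, against 30.2%. The 4 added in WT were MT-CYB (-0.59, adjusted p = 0.000117), MT-ND1 (-0.49, adjusted p = 0.000211), MT-ND5 (-0.46, adjusted p = 0.00086) and MT-ND3 (-0.20, adjusted p = 0.0403). The 4 added in CD47- cells were MT-ND1 (-0.36, adjusted p = 0.00317), MT-ND3 (-0.43, adjusted p = 0.000183), MT-ND4L (-0.51, adjusted p = 0.00454) and MT-ND5 (-0.42, adjusted p = 0.00168). The log2 values themselves changed by at most 0.01, and the standard errors of the added genes shrank, for MT-CYB in WT from 0.278 to 0.108.

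MT-ND6 was the one member called higher in that fit. In WT cells it had 20.6, 21.3, 17.8 and 18.9 CPM at 1 h, 24.6, 25.8 and 24.1 CPM at 3 h and 23.2, 24.9 and 20.6 CPM at 6 h. The libraries at 3 h lay above those at 1 h, and those at 6 h overlapped them. The log2 fold change was 0.34 at 3 h (adjusted p = 0.169 with all libraries and 0.00254 without the library that stood apart) and 0.22 at 6 h (adjusted p = 0.338 and 0.0261). In CD47- cells the change at 6 h was -0.14 (adjusted p = 0.57). At 3 h it was -0.32 (adjusted p = 0.203), and 0.01 (adjusted p = 0.949) without the library that stood apart. Without the CD47- library given TSP1 alone at 3 h it was -0.58 (adjusted p = 0.0316).

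**Figure D3:**
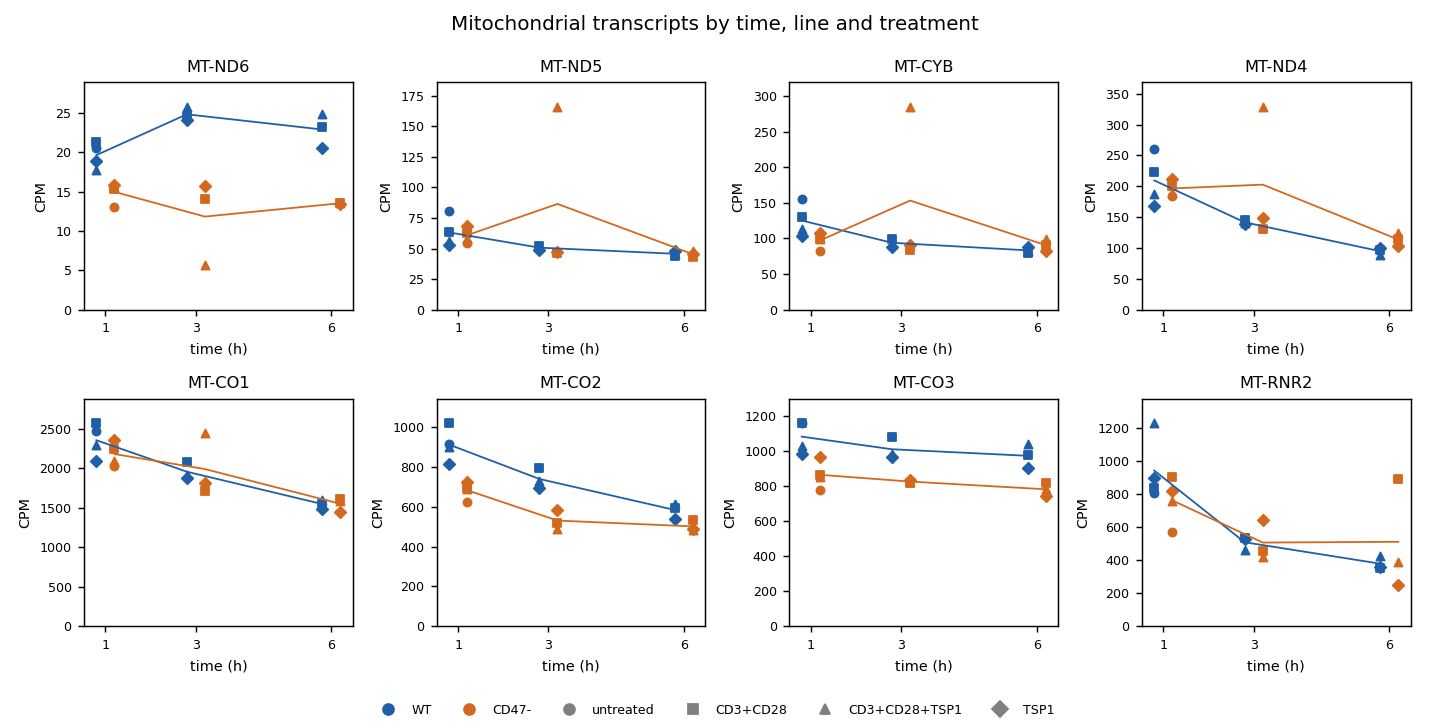
CPM of 8 members in each library at 1, 3 and 6 h, with the line as color, the treatment as symbol, lines through the group means, and axes that start at 0. MT-ND4, MT-CO1 and MT-CO2 fall in both lines, MT-ND6 stays higher in WT than in CD47- cells, and the high CD47- points of MT-ND5, MT-CYB and MT-ND4 at 3 h are the library that stood apart.

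At 3 h against 1 h, 3 members were called lower in WT cells (MT-CO2, MT-ND4 and MT-RNR2), against 18.5% of all genes, and 1 in CD47- cells (MT-CO2), against 20.4%. With each of the 20 libraries omitted in turn, the WT call of MT-ND4 (-0.56, adjusted p = 0.0444) was lost in 13 fits, that of MT-RNR2 in 2 and that of MT-CO2 in 1, and the CD47- call of MT-CO2 in 0. MT-RNR1 in WT cells, at -1.60 (adjusted p = 0.0523), was not called with all libraries. It was called in some of those fits, such as the one without the CD47- CD3+CD28 library of 6 h (adjusted p = 0.00251). Leaving out the library that stood apart gave counts of 11 lower in WT, against 22.0%, with MT-ND6 as 1 higher, against 21.9%, and 4 lower in CD47- cells (MT-CO2, MT-CO1, MT-ND4 and MT-ND5), against 18.0%. In CD47- cells 9 members changed sign with it left out, among them MT-CYB from 0.66 to -0.14, MT-ND5 from 0.50 to -0.37, MT-ND2 from 0.51 to -0.34 and MT-ND4 from 0.04 to -0.49. Between 3 and 6 h, 3 members were called lower in WT cells, with and without that library, against 18.7 and 22.0% of all genes. In CD47- cells 6 were called (MT-CO1, MT-CYB, MT-ND1, MT-ND4, MT-ND4L and MT-ND5), against 20.2%. Each of these lost its call without that library, and a different gene, MT-ND3, was then the 1 called (-0.30, adjusted p = 0.0211), against 20.6%. Omitting libraries in turn, the CD47- call of MT-CYB was lost in 17 of 20 fits and that of MT-ND4L in 13, and the WT call of MT-ND4 in 14. For 3 h against 1 h the WT count was 1 if the WT CD3+CD28+TSP1 or TSP1 library of 3 h was omitted, 5 if the WT TSP1 library of 1 h or the CD47- CD3+CD28 library of 3 h was, and 6 if the CD47- TSP1 library of 3 h was, in fits that called 15% to 19.3% of all genes lower. When those same CD47- libraries of 3 h were omitted, 2 and 3 members were called lower in CD47- cells and 3 were called higher in each fit (MT-ND2, MT-ND5 and MT-CYB), against 18.5 and 21.1% of all genes lower and 17.4 and 19.6% higher. The CD47- count was 2 lower when the CD3+CD28 library of 6 h was omitted, against 19.6%. Between 3 and 6 h the WT count was 1 when the CD3+CD28 library of 3 h or the TSP1 library of 6 h was omitted, against 15% and 15.4%. The CD47- count of that contrast was 3 without the CD3+CD28 or CD3+CD28+TSP1 library at 6 h, against 15.6 and 15.8%, and 1 without the TSP1 library at 6 h, against 17.0%.

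Whether the lines differed in their change with time was tested as an interaction. In edgeR 0 of 15 members were called at 6 h, against 16.4% of all genes, and 0 at 3 h, against 4.45%. At an unadjusted p under 0.05 there were 1 and 4 members, against 4825 and 3490 of the 16327 genes. DESeq2 and limma voom called 0 members in each, against 7.71 and 7.33% of all genes higher and 10.2 and 9.75% lower at 6 h, and 3.30 and 1.72% higher and 3.98 and 2.76% lower at 3 h. With the library that stood apart left out, 3 of 15 were called at 6 h, against 23.6%, and 0 at 3 h, against 4.34%. The interaction at 6 h was then 0.49 for MT-CYB (adjusted p = 0.0248) and 0.41 for MT-ATP6 (adjusted p = 0.0304), whose values were less negative in CD47- than in WT cells, and -0.37 for MT-ND6 (adjusted p = 0.0332). With all libraries the adjusted p-values of these 3 were 0.437, 0.259 and 0.41. With the CD47- TSP1 library at 6 h left out, MT-RNR1 (2.58, adjusted p = 0.027) and MT-RNR2 (1.10, adjusted p = 0.0344) were called, against 5.56% of all genes higher and 6.93% lower. The interaction of MT-RNR1 was 2.04 with all libraries (adjusted p = 0.113) and -0.01 without the CD47- library given CD3+CD28 at 6 h, and that of MT-RNR2 was 0.74 with all libraries (adjusted p = 0.227). At 3 h, 2 higher, and 2 higher with 1 lower, were called without the CD47- library given CD3+CD28 or TSP1 alone, against 2.79 and 4.50% of all genes higher and 2.64 and 5.36% lower.

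**Figure D4:**
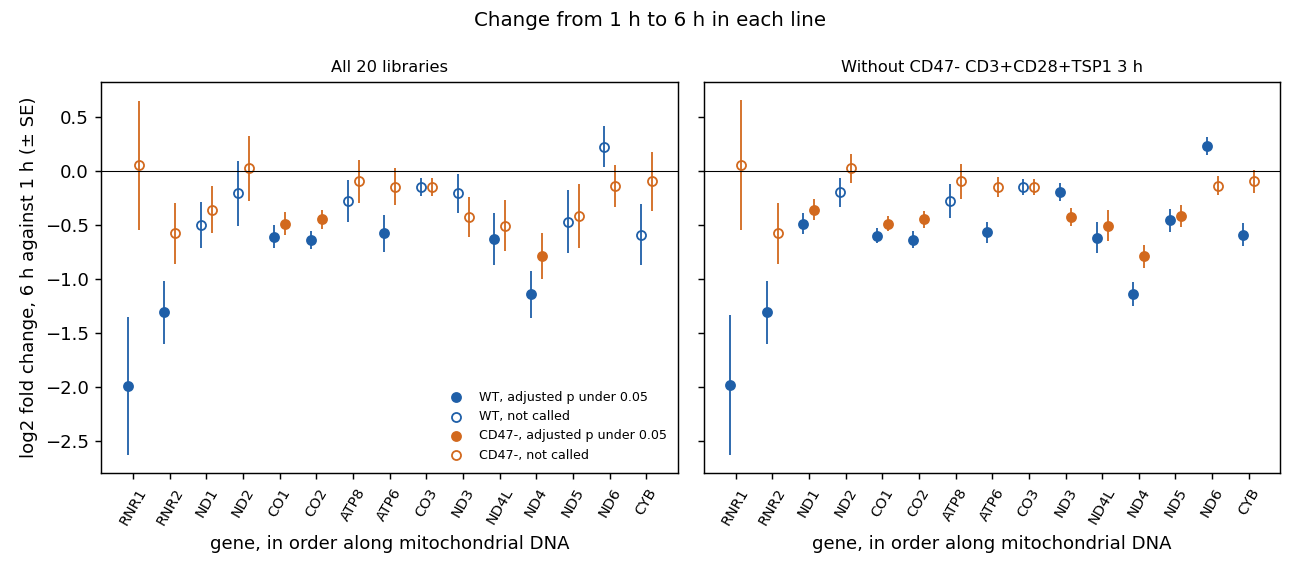
Log2 fold change at 6 h against 1 h with its SE for the 15 members in order along the molecule, in WT and CD47- cells, with all 20 libraries (left) and without the CD47- library given CD3+CD28+TSP1 at 3 h (right). Filled points passed an adjusted p of 0.05, and the right panel has more of them at nearly the same log2 values, with MT-ND6 above 0 in WT.

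No member was called for treatment with the low-count filter. In 10 contrasts of CD3+CD28 or TSP1 against untreated cells, of CD3+CD28+TSP1 against either agent alone, and of the lines in the last 2, 0 of 150 member tests passed in edgeR, and 14 had an unadjusted p under 0.05, as had 366 to 2636 of the 16327 genes in each contrast. DESeq2 and limma voom called 0 as well, with at most 0.30 and 0.171% of all genes called in 1 direction of a contrast, as did edgeR without the library that stood apart, and edgeR without a low-count filter called 39, where 0.714% of the tests of all genes passed. The lowest adjusted p was 0.283. Over all genes 15 of the tests passed, or 0.00919%, all of them in 1 contrast. The log2 fold changes of the members ranged from -2.15 to 2.02. The 14 edgeR tests with an unadjusted p under 0.05 all lay in contrasts that use the CD47- CD3+CD28+TSP1 libraries, among them the one that stood apart.

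The nuclear genes that act on mitochondrial DNA and RNA were counted in lists. Between the lines 19.8% of all genes were called higher and 20.6% lower, and the counts that follow are read beside those shares. They come from the unpaired fit. Without the library that stood apart that fit called 21.3% of all genes higher and 20.5% lower. With a term for each pair 27.2% of all genes were called higher and 27.6% lower. In that fit 4 transcription genes were higher and 2 lower, 7 RNA processing genes higher and 3 lower, 5 complex I genes higher and 10 lower, and 31 mitochondrial ribosomal protein genes higher and 7 lower, while the total of each other list changed by at most 1. The transcription list holds the polymerase POLRMT and its factors, such as TFAM, which packages the DNA and opens promoters, and TEFM, an elongation factor. Between the lines TFAM was higher in CD47- cells (154 ± 23.3 against 130 ± 13.9 CPM in WT, log2 fold change 0.25, adjusted p = 0.0257) and TEFM lower (9.95 ± 0.992 against 12.3 ± 1.83 CPM in WT, -0.30, adjusted p = 0.0125), and the other 5 were not called. In the replication list 3 of 8 were higher and 2 lower. TOP1MT, the mitochondrial topoisomerase (0.41), and the helicase TWNK (0.58) were higher, and the polymerase subunit POLG (-0.45) and the nuclease MGME1 (-0.46) were lower.

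Of 20 genes of RNA processing and stability 3 were higher and 2 lower in CD47- cells. LRPPRC, which binds and stabilizes heavy-strand mRNAs, was at 173 ± 22.5 against 130 ± 15.5 CPM in WT (log2 fold change 0.41, adjusted p = 0.000402). SUPV3L1, a helicase that takes part in the degradation of mitochondrial RNA, was higher (0.42, adjusted p = 0.00249), FASTKD1 lower (-0.33, adjusted p = 0.000124), and PRORP, the nuclease that cuts the 5' ends of tRNAs, lower (-0.32, adjusted p = 0.00592). Of the 6 biogenesis regulators 2 were higher, PPRC1 (0.43) and PPARGC1B (0.63), and 2 lower, GABPA (-0.34) and PPARGC1A (-1.49), the last at only 0.663 and 0.229 CPM. Without the library that stood apart the RNA processing list had 5 higher and 2 lower, and PPARGC1B was not called (adjusted p = 0.0811).

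Of 78 nuclear subunits of the respiratory chain and ATP synthase 4 were higher and 15 lower in the mutant line (median log2 fold change -0.07), and 11 higher and 12 lower with the library that stood apart left out. In complex I the counts were 1 higher (NDUFC2, 0.32) and 7 lower of 37, led by NDUFB11 (-0.78, adjusted p = 1.12e-06) and NDUFB1 (-0.50), but 5 higher and 5 lower with that library left out. In ATP synthase 5 of 17 were lower, among them ATP5MG (-0.50) and ATP5MC2 (-0.37). In cytochrome c oxidase 2 of 11 were lower, COX5A (-0.26) and COX7C (-0.23), the former not called with that library left out (adjusted p = 0.082). In complex II SDHA was higher (0.38) and in complex III UQCRC1 (0.27) and CYC1 (0.35) were higher and UQCRB lower (-0.35). Of 75 mitochondrial ribosomal protein genes 7 were higher, led by MRPS6 (0.83) and MRPL44 (0.33), and 4 lower, led by MRPL57 (-0.43) and MRPL39 (-0.68). With that library left out these were 14 and 2.

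With time most called genes of the nuclear lists were higher, where the called mitochondrial genes were lower. At 6 h against 1 h, 50 of 78 nuclear subunits were called higher and 2 lower in WT cells (median log2 fold change 0.35), and 49 higher and 5 lower in CD47- cells (median 0.32), beside 26.8 and 26.4% of all genes called higher. By complex the medians in WT and CD47- cells were 0.42 and 0.34 for complex I, 0.32 and 0.11 for complex II, 0.27 and 0.09 for complex III, 0.27 and 0.34 for complex IV and 0.34 and 0.44 for ATP synthase. SDHA, the flavoprotein of complex II, fell by 0.65 and 0.69, and the complex III core protein UQCRC2 fell by 0.48 and 0.39. In CD47- cells UQCRFS1, the Rieske protein, NDUFA10 and NDUFS4 were also lower, at -0.48, -0.25 and -0.28. Mitochondrial ribosomal protein genes were called higher in 55 of 75 in WT and 52 of 75 in CD47- cells, and lower in 3 and 4.

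Of the transcription list 6 of 7 were higher in WT and 5 of 7 in CD47- cells, with TFAM at 0.33 (adjusted p = 0.00971) and 0.34 (adjusted p = 0.00765) and MTERF1 lower in CD47- cells (-0.52). Of the RNA processing list 14 of 20 were higher in WT and 17 of 20 in CD47- cells, with FASTKD5 lower in CD47- cells (-0.28), and SUPV3L1 was at 0.34 and 0.50. Of the replication list 4 of 8 were higher in each line, with TWNK at 0.65 and 1.28, and 1 lower in WT, POLG at -0.16. Of the 6 regulators 3 were higher in each line, with PPARGC1B at 0.96 and 1.31. With the library that stood apart left out, the nuclear subunits counted 55 higher and 5 lower in WT and 50 and 7 in CD47- cells. Of all genes that fit called 29.4% higher and 29.3% lower in WT, and 28.4 and 30.2% in CD47- cells. The difference between the nuclear lists and the mitochondrial genes was not tested.

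**Figure D5:**
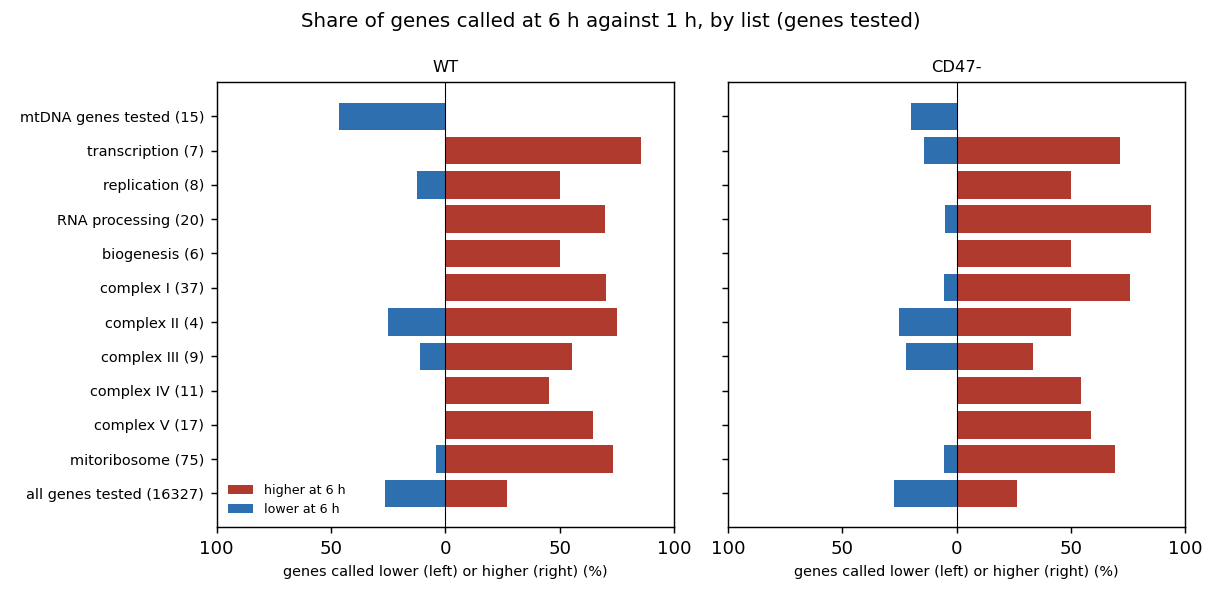
Percentage of genes called higher (right) or lower (left) at 6 h against 1 h in WT and CD47- cells, for the 15 mitochondrial genes tested, 10 nuclear lists and all genes tested, with the number tested in brackets. The mitochondrial genes have bars only on the lower side, and the bars of the nuclear lists lie mainly on the higher side.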

How the data were processed

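RNA of 20 samples was sequenced. Per the labels and the study's methods, the authors used Cutadapt 1.18 for trimming, STAR 2.4.2a for alignment to GRCh38, and RSEM 1.3.3 with GENCODE 36 for counting. The deposited gene table holds RSEM expected counts, not normalized. It has 2 more columns of values that belong to no sample here and were not used, and the isoform table was not used.

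Expected counts were rounded. The low-count filter was filterByExpr with line as the group (a minimum count of 10 and total of 15). Counts were scaled by TMM and tested with edgeR 4.0.16 (R 4.3.3) quasi-likelihood models, with Benjamini-Hochberg adjustment over all 16327 genes tested and a threshold of 0.05. Lines were compared in a model of line alone, times in a model of 6 line by time groups, and treatments in a model of line and treatment with time terms. CPM are counts per 1e6 of TMM-scaled library size. Log2 ratios used a pseudocount of 1 and exact permutation tests. Alternatives were DESeq2 1.42.0, limma 3.58.1 voom, other scalings and filters, other terms, nuclear copies added and libraries left out. Libraries of the lines matched for treatment and time per the labels correlated in their deviations at 0.12 to 0.488, so that a fit with a term for each pair is given where it changes a call. Only for CD3+CD28 at 3 h was the matched library the one that correlated best. Library totals of 16107921 to 31737616 counts set the precision, and a gene at 0 was given the level of 3 counts as its limit, for counting error only. All 15 mRNAs and rRNAs were to be named, tRNAs if tested, the 3 nuclear copies with most counts, and up to 2 genes in each direction per nuclear list with the smallest p between the lines. The genes named as lower at 6 h in lists with few such genes (MTERF1, FASTKD5, NDUFA10, NDUFS4, UQCRC2, UQCRFS1) were chosen after their values were seen. Members and lists were chosen with earlier results of these data known. Positions and sequences come from GRCh38 with GENCODE 44.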

Additional observations from a re-analysis of the deposited data

Results flagged for a closer look

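In 34 sets of 10 libraries, each a gene or ratio in a line, 15 values lay farther from their neighbors than Dixon's limit allows. For independent values of 1 normal distribution chance flags about 1 in 20 sets (5%). The sets here pool times and treatments and share libraries, so their own chance rate is not known. Of the 15, 11 were in the CD47- library given CD3+CD28+TSP1 at 3 h. It was the highest CD47- library for MT-ND1 (79.7 CPM), MT-ND2 (103 CPM), MT-ATP8 (9.96 CPM), MT-ATP6 (134 CPM), MT-ND4L (63.5 CPM), MT-ND4 (329 CPM), MT-ND5 (166 CPM) and MT-CYB (285 CPM). It was the lowest for MT-ND6 (5.70 CPM) and for the log2 ratios of MT-ND6 to MT-ND5 (-4.85) and to MT-CYB (-5.63). It also had the lowest total count, 16107921, and the lowest share of RNAs without a poly(A) tail, 10.4%, and the part of either in these values was not tested.

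The untreated WT library at 1 h was the highest of its line for MT-ND2 (57.8 CPM), MT-ND4L (50.3 CPM) and MT-ND5 (80.6 CPM). The CD47- library given CD3+CD28 at 6 h was the highest of its line for MT-RNR1 (768 CPM).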

How the results depend on the processing

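Between the lines MT-ND6 stayed called and lower under every setting run. MT-CO2 lost its call in limma voom (-0.25, adjusted p = 0.0569), in the 6 activated pairs (-0.43, adjusted p = 0.0546) and in the 4 others (-0.27, adjusted p = 0.352), and MT-CO3 in limma voom (-0.14, adjusted p = 0.153) and in those 4 pairs (-0.25, adjusted p = 0.198). Leaving each library out in turn, the count called, in both directions together, was 3 to 5 between the lines, 1 to 12 for WT 3 h against 1 h, 6 to 12 for WT 6 h against 1 h, 1 to 3 for WT 6 h against 3 h, 1 to 6, 3 to 7 and 1 to 8 for the same 3 contrasts in CD47- cells, 2 to 7, 2 to 10 and 2 to 5 between the lines at 1, 3 and 6 h, and 0 to 3 for each interaction. In the same order, the share of all genes called in each direction was 18.8 to 21.3%, 14.9 to 22.0%, 23.0 to 29.4%, 15% to 23.2%, 15.9 to 21.1%, 23.4 to 30.2%, 15.1 to 20.9%, 21.1 to 28.6%, 18.4 to 24.9% and 19.5 to 26.5%, and 4.63 to 14.3% and 0.962 to 5.36% for the interactions at 6 and 3 h. With both CD3+CD28+TSP1 libraries at 3 h left out, a choice made after seeing the data, the counts were 5 between the lines, 7 and 12 for WT at 3 and 6 h against 1 h, 4 and 7 for CD47- cells, 1 for CD47- 6 h against 3 h, 7 and 4 between the lines at 1 and 6 h, and 3 for the interaction at 6 h, when 17.1 to 30.2% of all genes were called in each direction, and 9.47 and 13.9% for the interaction.

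Without a low-count filter they were 12 and 5 for WT 3 h against 1 h and 6 h against 3 h, 8 and 8 for CD47- cells at 3 and 6 h against 1 h, 9, 10 and 6 between the lines at 1, 3 and 6 h, 4 and 9 for the interactions at 6 and 3 h, and 39 for the treatments, when 6.56 to 10.9% of all genes were called in each direction for the lines and times, 1.23 to 3.15% for the interactions and 0.714% for the treatments. The cause was not tested. The count for CD47- 3 h against 1 h was 2 with DESeq2, upper-quartile factors, the filter of 1 CPM, a treatment term or one within each line (17.7 to 24.0% of all genes in each direction), which gave 6 for CD47- 6 h against 1 h, all lower, as were 27.0% of all genes. Between the lines it was 1, lower, with the 4 unactivated pairs (7.25% lower), and 2, both lower, at 1 h without the untreated libraries (20.6% lower).

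With a replicate block for the 10 pairs 5 members were called between the lines, MT-ND3 among them (-0.24, adjusted p = 0.0416), and 27.6% of all genes were called lower.

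With the library that stood apart left out, 9 members changed sign at 3 h against 1 h in CD47- cells, and 9 between the lines at 3 h. These were not all the same members. MT-ATP8, MT-ND4 and MT-ND6 changed sign only in the former, and MT-CO1, MT-ND3 and MT-RNR2 only in the latter. Signs also changed for MT-ND2 in CD47- cells at 6 h against 1 h (-0.08 and -0.04 with treatment terms within each line and without untreated libraries, -0.06 to 0.09 with 1 library left out), for MT-RNR1 (-0.77 with limma voom, -0.26 and -0.73 with treatment terms, -0.16 without untreated libraries, -2.0 to 0.57 with 1 left out), for MT-ATP8 (-0.24 to 0.06) and, between the lines at 3 h, for MT-CO3 (0.07 with limma voom). Of the 10 members not called between the lines with or without the library that stood apart, 9 changed sign under some setting and 1, MT-ND3, was called with the replicate block.

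The ratio of MT-ND6 to MT-ND5 between the lines was -0.54 with both libraries left out (adjusted p = 0.0703) and -0.96 to -0.54 with 1 left out. In 18 of those 20 fits it lost its call (adjusted p = 0.0703) at the smallest p that 9 pairs allow. The ratio to MT-CYB was -0.89 without untreated libraries (adjusted p = 0.0352) and -0.89 to -0.44. For CD47- 3 h against 1 h and 6 h against 3 h they were 0.38 and -0.09 (MT-ND5) and 0.15 and -0.19 (MT-CYB) with both libraries left out, and ranged from -1.25 to 0.38, -0.09 to 1.54, -1.40 to 0.15 and -0.19 to 1.36. For WT 6 h against 3 h they ranged from -0.03 to 0.13 and -0.03 to 0.17, and for MT-CYB in CD47- cells at 6 h against 1 h from -0.10 to 0.02.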
